A study of Homo sapiens with 8 samples.

Results

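The Polo-like kinases PLK1, PLK2, PLK3 and PLK4 were followed in HCT116 cells, a line from a human colon carcinoma, by RNA sequencing. The members were taken by gene symbol, which matched 4 of the 60669 genes in the count tables, and all 4 passed the filter on low counts that left 17868 genes to test. The family was chosen with the knowledge that its members moved in opposite directions, so that pattern is given here as a description and supports nothing. The 4 groups held 2 libraries each: unedited WT cells left untreated, WT cells after 24 h in 0.5 µM doxorubicin, untreated cells with the R350H change in DPF2, and R350H cells after the same treatment. R350H was placed in the genome by CRISPR/Cas9, and both genotypes are otherwise HCT116, so the parental line's own mutations are shared by all groups. Doxorubicin poisons topoisomerase II and so breaks DNA, and DPF2 belongs to BAF, a chromatin remodelling complex. The study asked how binding of that complex to an acetylated histone H3 bears on expression in damaged cells. The labels give neither the number of edited clones nor the origin of the libraries (separate cultures or not), so p-values reflect only how these libraries varied, possibly for technical reasons. Other differences between the lines cannot be told apart from the edit.

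Polo-like kinases are serine and threonine kinases that carry a kinase domain and polo-box domains, the latter docking them to their substrates. PLK1 drives mitotic entry, spindle assembly, chromosome segregation and cytokinesis, and it is held off by the DNA damage checkpoint and needed for recovery from it. PLK4 starts centriole duplication. PLK2 and PLK3 are stress-responsive kinases, described as immediate early genes that serum induces, and PLK2 is also a target of p53, the transcription factor that responds to DNA damage. The remaining family member, PLK5, which lacks most of the kinase domain in humans, was counted 3 to 28 times per library (0.11 to 0.86 CPM, counts scaled to the size of the library) and was not followed further.

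PLK1 (ENSG00000166851.15) lies at chr16:23677656-23690367 on the plus strand of hg38, and PLK2 (ENSG00000145632.15) at chr5:58453982-58460139 on the minus strand. PLK3 (ENSG00000173846.13) lies at chr1:44800377-44805990 and PLK4 (ENSG00000142731.11) at chr4:127880893-127899224, both on the plus strand. No stretch of 50 bases was shared between annotated transcripts of any 2 members. On the opposite strand, exons of PLK1 overlapped those of the unnamed gene ENSG00000261266 by 553 bases and those of ERN2 by 58 bases, and exons of PLK3 overlapped those of DYNLT4 by 78 bases, and the counting used strand. ENSG00000261266 held 0 to 2 counts per library, ERN2 12 to 54 and DYNLT4 0 to 6, while PLK1 held 488 to 4546 and PLK3 2113 to 7351.

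The 140 bases before each member's first RefSeq start site (RefSeq, GRCh38.p14) are printed because the members' promoters hold different short elements. All are written 5′ to 3′ on the gene's strand. Capitals mark the cell cycle homology region TTTGAA, the CCAAT box, the Sp1 box GGGCGG, which reads as CCGCCC where it lies on the other strand, and the p53 decamer, the single repeat of a p53 response element.
PLK1, chr16:23678749-23678888, plus strand: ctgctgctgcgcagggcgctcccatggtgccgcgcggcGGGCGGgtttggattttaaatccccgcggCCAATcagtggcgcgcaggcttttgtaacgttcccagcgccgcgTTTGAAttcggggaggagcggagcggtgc
PLK2, chr5:58460087-58460226, minus strand: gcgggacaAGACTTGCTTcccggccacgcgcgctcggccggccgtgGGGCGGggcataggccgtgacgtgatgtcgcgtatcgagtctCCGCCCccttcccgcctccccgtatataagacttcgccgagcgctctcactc
PLK3, chr1:44800237-44800376, plus strand: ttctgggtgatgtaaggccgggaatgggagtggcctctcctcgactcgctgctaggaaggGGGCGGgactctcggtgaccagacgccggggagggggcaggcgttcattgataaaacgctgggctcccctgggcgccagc
PLK4, chr4:127880753-127880892, plus strand: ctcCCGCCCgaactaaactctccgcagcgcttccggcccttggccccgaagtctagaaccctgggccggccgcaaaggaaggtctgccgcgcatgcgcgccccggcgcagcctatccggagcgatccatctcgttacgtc
The TTTGAA of PLK4 was on the other strand and just past the start site, and a short stretch around it is shown with its reverse complement in capitals.
PLK4, chr4:127880922-127880942, plus strand: cgggagattTTCAAAatggga

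Motifs were searched on both strands in windows from 250 bases before to 50 bases after the start site, and all 4 members had a window. PLK1 held TTTGAA at positions -29 to -24 from the start site, a CCAAT box at -73 to -69 and a GGGCGG at -102 to -97. TTTGAA is the form of the cell cycle homology region that recruits the MuvB core in many genes of G2 and mitosis, and CCAAT binds NF-Y in many of the same promoters. The first of the 3 windows of PLK4 held TTTGAA at positions 39 to 44 and a GGGCGG at -137 to -132, both on the other strand. Windows 2 and 3 of PLK4, at start sites further downstream, held more GGGCGG. Window 3 also held a CCAAT box at -86 to -82 from its own start site, on the other strand. PLK2 held a p53 decamer at -132 to -123 and GGGCGG at -94 to -89 and, on the other strand, at -52 to -47. PLK3 held only GGGCGG, at -80 to -75 and at 43 to 48. No window of a member held the cAMP response element TGACGTCA or the CArG box, the element bound by serum response factor, and this says only that those letters are not in these windows. Of 35116 windows in the RefSeq table, 15.2% held TTTGAA, 34.6% CCAAT, 45% GGGCGG, 1.85% TGACGTCA, 1.29% a CArG box and 6.63% a p53 decamer. A match is a description of the sequence and not evidence of binding.

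Across the series, libraries held 28111673 to 33727374 counts. DPF2 was counted at 92.7 to 108 CPM (on TMM-scaled library sizes) in the 4 WT libraries and 53.5 to 58.6 CPM in the 4 R350H libraries. An amino acid change does not remove the transcript, so this level does not check the edit itself. DPF2 was 1.66-fold lower in untreated R350H than in untreated WT cells (log2 -0.73 ± 0.07, edgeR adjusted p = 9.29e-10). After doxorubicin it was 1.99-fold lower in R350H (log2 -0.99 ± 0.07, edgeR adjusted p = 1.53e-12). The lines thus also differed in DPF2 level, and whether this bears on the PLK genes was not tested. The 7 epithelial markers summed to 3254 to 5618 CPM per library, the 5 blood markers to 0.18 to 0.57 CPM and the 3 endothelial markers to 0.48 to 1.31 CPM. Of the 5 fibroblast markers COL1A1 alone reached 33.3 to 88.7 CPM, LUM was at 0 in every library, and COL1A2 and DCN stayed under 0.07 CPM. Mitochondrially encoded genes took 11.2 to 11.8% of counts in untreated libraries and 13.5 to 14.6% in treated ones, and with these genes left out of the library sizes every one of the 20 member comparisons stayed on its side of the threshold. In bulk RNA, fewer cells in a phase of the cell cycle and less RNA per cell cannot be told apart.

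PLK1, the mitotic kinase, fell with doxorubicin in both genotypes, less in R350H cells. Its level in WT was 116 and 123 CPM untreated and 17.3 and 17.4 CPM after treatment. In R350H cells it was 142 and 126 CPM untreated and 32.1 and 33.4 CPM after treatment. Treated and untreated libraries did not overlap in either genotype, and both treated R350H libraries were above both treated WT libraries. With 2 libraries a group, such separation can easily arise without a true difference. Its share over all genes was not counted, so here and below it is a description only. PLK1 fell 6.90-fold in WT (119.6 ± 4.69 to 17.3 ± 0.09 CPM, SD, n = 2), a log2 change of -2.79 ± 0.08 (SE, edgeR adjusted p = 1.91e-20), where 47.7% of all tested genes were called and 23.6% were called lower. Among the 17868 tested genes its log2 change ranked 57 from the lowest there. In R350H it fell 4.09-fold, a log2 change of -2.03 ± 0.07 (edgeR adjusted p = 1.63e-18), where 47.9% of genes were called and 21.8% were called lower.

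**Figure D1:**
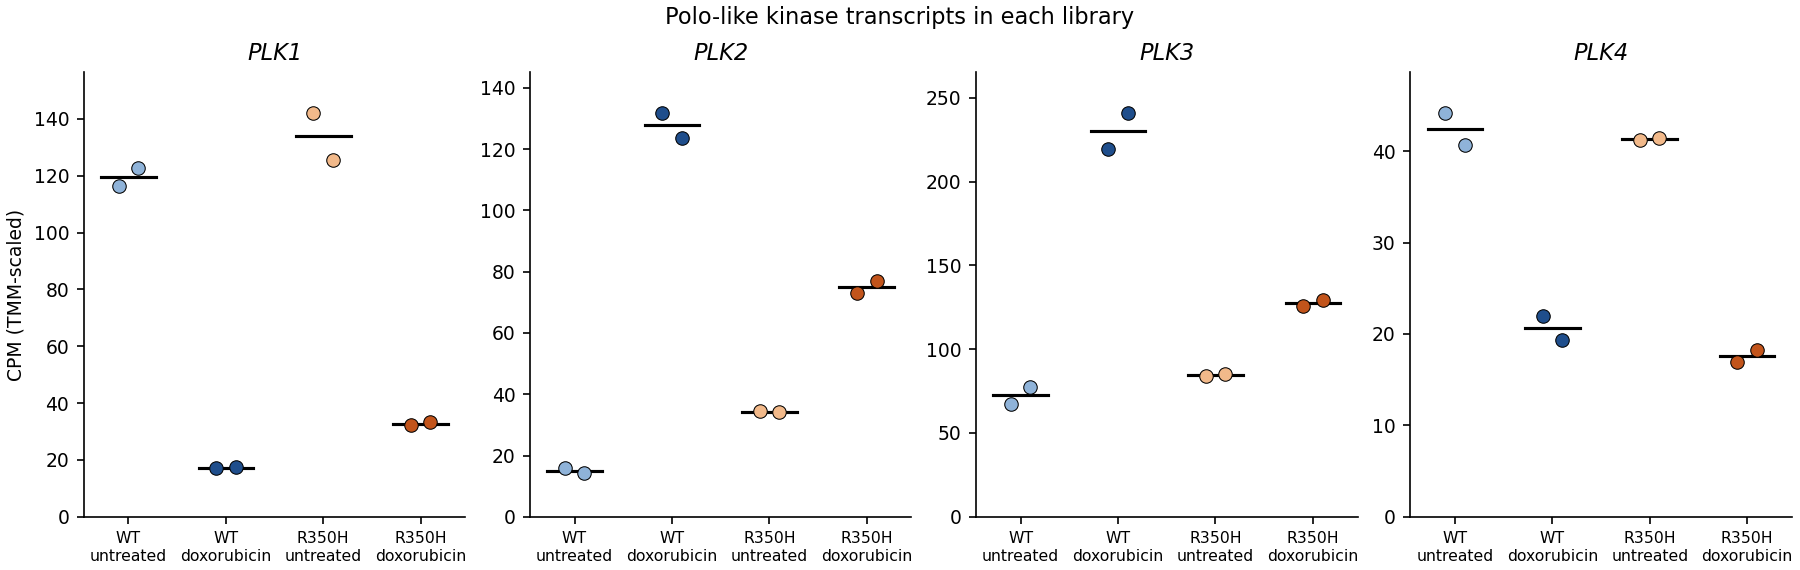
CPM of each member (vertical axis, linear, starting at 0, with its own range per panel) in the 8 libraries. Points are libraries and bars are the means of 2. PLK1 and PLK4 sit lower after doxorubicin in both genotypes, and PLK2 and PLK3 sit higher, with PLK2 at 128 CPM on average in treated WT and 74.9 CPM in treated R350H.

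PLK4 was the other member that fell. Its level in WT was 44.2 and 40.6 CPM untreated and 22.0 and 19.4 CPM treated. In R350H it was 41.2 and 41.4 CPM untreated and 16.9 and 18.2 CPM treated. The untreated libraries of the 2 genotypes overlapped, while every treated library was below every untreated one. PLK4 fell 2.06-fold in WT, a log2 change of -1.04 ± 0.09 (edgeR adjusted p = 7.49e-11), and 2.35-fold in R350H, a log2 change of -1.23 ± 0.09 (edgeR adjusted p = 1.97e-12).

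PLK2 rose more than any other member. In WT its level was 15.9 and 14.2 CPM untreated and 132 and 124 CPM treated. In R350H it was 34.7 and 34.1 CPM untreated and 73.1 and 76.8 CPM treated. The groups did not overlap, and their order from low to high was untreated WT, untreated R350H, treated R350H and treated WT. PLK2 rose 8.47-fold in WT, a log2 change of 3.08 ± 0.08 (edgeR adjusted p = 3.14e-21), where 24.1% of genes were called higher and it ranked 134 from the highest. In R350H it rose 2.18-fold, a log2 change of 1.12 ± 0.07 (edgeR adjusted p = 3.25e-13), where 26.1% of genes were called higher and it ranked 694.

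PLK3 rose as well, with a wider spread between libraries in the WT groups than in the R350H groups. In WT its level was 67.4 and 77.3 CPM untreated and 219 and 241 CPM treated. In R350H it was 84.2 and 84.9 CPM untreated and 126 and 129 CPM treated. The groups stood in the same order as for PLK2, without overlap. PLK3 rose 3.18-fold in WT, a log2 change of 1.67 ± 0.07 (edgeR adjusted p = 8.92e-17). In R350H it rose 1.51-fold, a log2 change of 0.59 ± 0.07 (edgeR adjusted p = 6.98e-08), and this rise did not pass a test against a 1.5-fold change (adjusted p = 0.901).

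The genotypes were then compared without the drug. PLK2 was 2.28-fold higher in untreated R350H than in untreated WT cells (log2 1.19 ± 0.08, edgeR adjusted p = 4.18e-12), where 36.8% of genes were called, 17.3% higher and 19.5% lower. PLK3 was 1.17-fold higher (log2 0.23 ± 0.07, edgeR adjusted p = 0.0137). That call was lost without untreated WT replicate 1 (log2 0.12, edgeR adjusted p = 0.218), and the value moved by over 1.5 times. It was also lost without untreated R350H replicate 1 (edgeR adjusted p = 0.0695), without untreated R350H replicate 2 (edgeR adjusted p = 0.0951) and without the 2 libraries counted with the other strand setting, untreated WT replicate 1 and untreated R350H replicate 2 (log2 0.12, edgeR adjusted p = 0.364). PLK1 did not pass the test at 0.16 ± 0.07 (95% interval 0.03 to 0.30, edgeR adjusted p = 0.0559), although its libraries did not overlap. It passed under other scalings, at 0.18 with RLE factors (edgeR adjusted p = 0.0412) and 0.19 with upper-quartile factors (edgeR adjusted p = 0.0238). It also passed without untreated WT replicate 2 (0.20), treated WT replicate 1 (0.16), treated WT replicate 2 (0.17) or untreated R350H replicate 2 (0.25, edgeR adjusted p = 0.0268), and was 0.07 without untreated R350H replicate 1. PLK4 was at -0.04 ± 0.08 (95% interval -0.20 to 0.13, edgeR adjusted p = 0.746), and its sign turned without untreated WT replicate 1 (0.0192).

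After doxorubicin the order of the genotypes for PLK2 and PLK3 was the opposite of that in untreated cells. PLK2 was 1.70-fold lower in treated R350H than in treated WT cells (log2 -0.77 ± 0.07, edgeR adjusted p = 4.06e-10), where 40.1% of genes were called, 19.1% higher and 21% lower. PLK3 was 1.81-fold lower (log2 -0.85 ± 0.07, edgeR adjusted p = 8.13e-11). PLK1 was 1.89-fold higher (log2 0.92 ± 0.08, edgeR adjusted p = 4.86e-10). PLK4 was 1.18-fold lower (log2 -0.23 ± 0.09, edgeR adjusted p = 0.0398). The PLK4 call was lost without treated WT replicate 1 (log2 -0.14, edgeR adjusted p = 0.314), where the value moved by over 1.5 times, without treated R350H replicate 1 (edgeR adjusted p = 0.177), without untreated R350H replicate 1 (0.0554) or replicate 2 (0.0553), and with upper-quartile factors (edgeR adjusted p = 0.0894). DESeq2 gave an adjusted p of 0.0525 for it.

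The difference between the doxorubicin responses, R350H minus WT, was tested as an interaction. It was -1.96 ± 0.11 on the log2 scale for PLK2 (edgeR adjusted p = 1.20e-13), so its rise was 3.88-fold smaller in R350H. It ranked 160 from the lowest. For PLK3 it was -1.08 ± 0.10 (edgeR adjusted p = 6.99e-09), a 2.11-fold smaller rise. For PLK1 it was 0.75 ± 0.11 (edgeR adjusted p = 8.50e-06), a 1.69-fold smaller fall, which did not pass a test against a 1.5-fold difference (adjusted p = 0.559). PLK4 had a difference of -0.19 ± 0.12 (edgeR adjusted p = 0.313), with a 95% interval of -0.44 to 0.05, so it did not pass the test, which does not show that its responses were alike. Over all genes 14.6% were called in this contrast, 6.46% higher and 8.18% lower, and the median log2 change of all genes was 0.0347, beside -0.03 to 0.03 in the other 4 contrasts. The contrasts share groups: treated WT, for example, enters the response in WT, the treated genotype contrast and the interaction, so these values are not independent of each other.

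**Figure D2:**
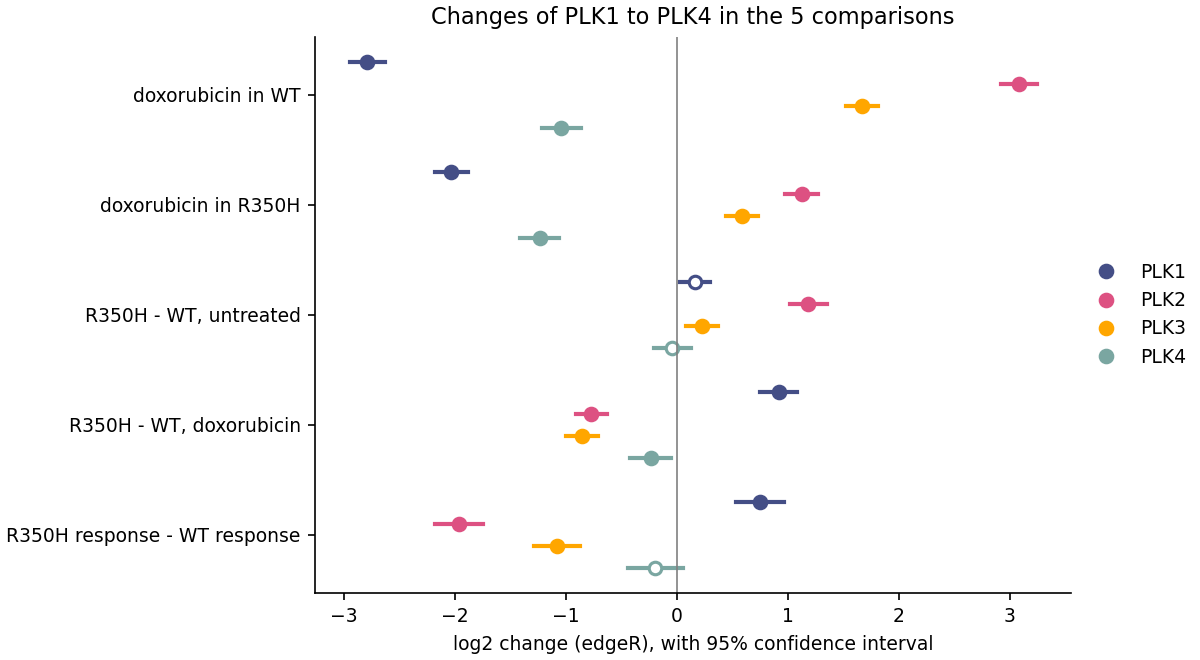
Log2 change of each member (horizontal axis) in the 5 comparisons (vertical axis), with bars for the 95% confidence interval of the edgeR fit. Filled points passed an adjusted p of 0.05 and open points did not. The PLK2 and PLK3 points lie to the right of 0 in untreated R350H against WT and to the left of 0 after doxorubicin.

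Levels can be compared between members only per length, as TPM, the level scaled to length and library. TPM was computed from the counts and the length of all annotated exons of a gene. In untreated WT cells PLK1 was highest at 75.3 ± 1.44 TPM (SD, n = 2), with PLK3 at 65.2 ± 5.04, PLK4 at 28.4 ± 2.27 and PLK2 at 9.72 ± 0.99 TPM. After treatment of WT cells PLK3 was highest at 191 ± 21.0 TPM and PLK2 second at 75.7 ± 0.26, while PLK4 at 12.7 ± 0.61 and PLK1 at 10.0 ± 0.48 were lowest. In untreated R350H cells PLK1 at 87.6 ± 8.59 and PLK3 at 79.1 ± 0.40 TPM were the highest, and they stood within 1 SD of PLK1 of each other. After treatment of R350H cells PLK3 at 117 ± 1.80 TPM led, PLK2 was at 49.0 ± 1.52, PLK1 at 20.9 ± 0.49 and PLK4 at 11.9 ± 0.60. PLK1 thus stood below PLK4 in treated WT cells and above it in treated R350H cells. Such ranks between members rest on the exon lengths used, 4760 bases for PLK1 and 4479 for PLK4. Which transcripts the cells made was not examined, so close ranks are uncertain.

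The summed level of the 4 members in WT was 179 ± 3.21 TPM without the drug and 289 ± 20.6 TPM with it. It was 218 ± 9.77 TPM in untreated R350H and 198 ± 4.42 TPM in treated R350H. The sum was thus highest in both treated WT libraries, and in R350H cells the treated libraries lay below the untreated ones. PLK1 held 42.2% ± 0.05 of the sum in untreated WT and 3.47% ± 0.08 in treated WT, and 40.1% ± 2.14 and 10.5% ± 0.01 in R350H. PLK3 held 36.5% ± 2.16 and 65.9% ± 2.56 in WT, and 36.2% ± 1.44 and 58.7% ± 0.40 in R350H. PLK2 went from 5.45% ± 0.65 to 26.2% ± 1.96 in WT and from 10.5% ± 0.22 to 24.7% ± 0.22 in R350H. PLK4 went from 15.9% ± 1.56 to 4.41% ± 0.52 in WT and from 13.2% ± 0.48 to 6.01% ± 0.17 in R350H. In treated cells the PLK2 shares of the genotypes were thus apart by less than the SD of the WT share (1.96), but by more than that of the R350H share (0.22). The PLK1 shares differed most in relative terms. The sum and the shares rest on the same exon lengths and carry the same uncertainty.

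**Figure D3:**
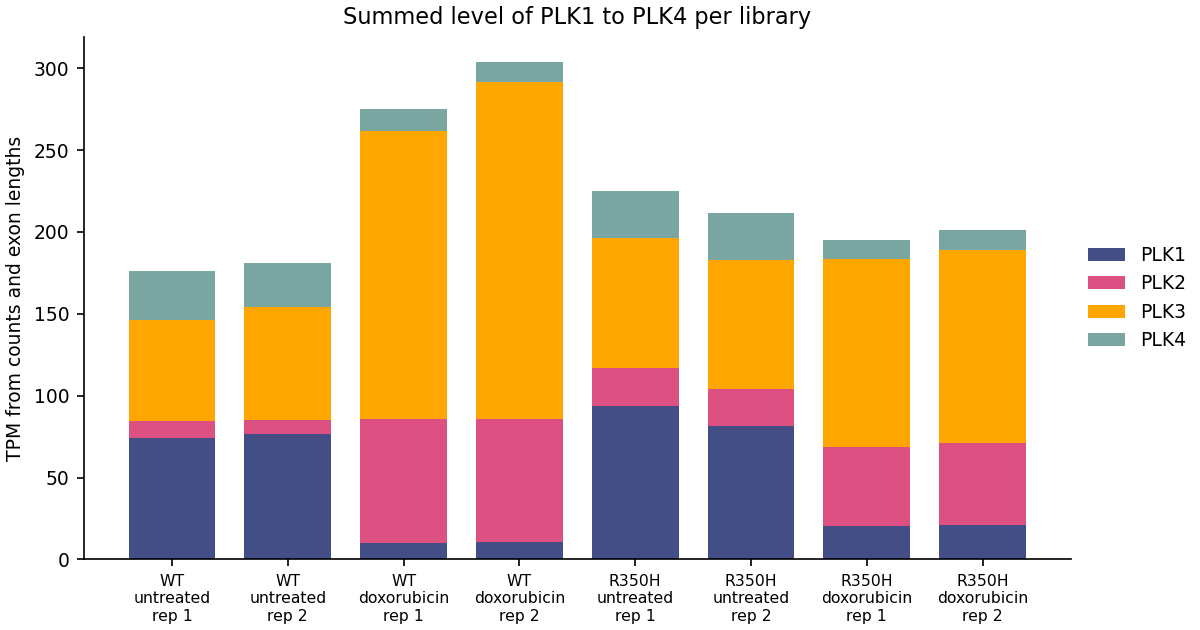
TPM of PLK1 to PLK4 from counts and exon lengths (vertical axis, starting at 0), stacked for each of the 8 libraries. The summed level averages 289 TPM in treated WT and 198 TPM in treated R350H, and PLK3 takes the largest part of each treated bar.

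The authors' deposited table of TPM values holds 202 genes, among them PLK2 and PLK3. In the authors' deposited table PLK2 stood at 8.77 and 7.89 TPM in untreated WT, 60.6 and 60.7 in treated WT, 19.9 and 18.9 in untreated R350H, and 38.1 and 40.0 in treated R350H. The authors' deposited table gave PLK3 at 41.3 and 47.2 TPM in untreated WT, 110 and 130 in treated WT, 53.2 and 52.0 in untreated R350H, and 71.2 and 73.2 in treated R350H. The order of the groups was that seen in the counts for both genes. The deposited values were 0.796 to 0.876 of those computed here for PLK2 and 0.618 to 0.686 for PLK3. The level of PLK3 relative to PLK2 thus depended on the source of the TPM. On the log2(TPM + 1) scale, the authors' deposited table gave a doxorubicin difference of 2.73 in WT and 0.97 in R350H for PLK2, and 1.42 and 0.45 for PLK3.

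**Figure D4:**
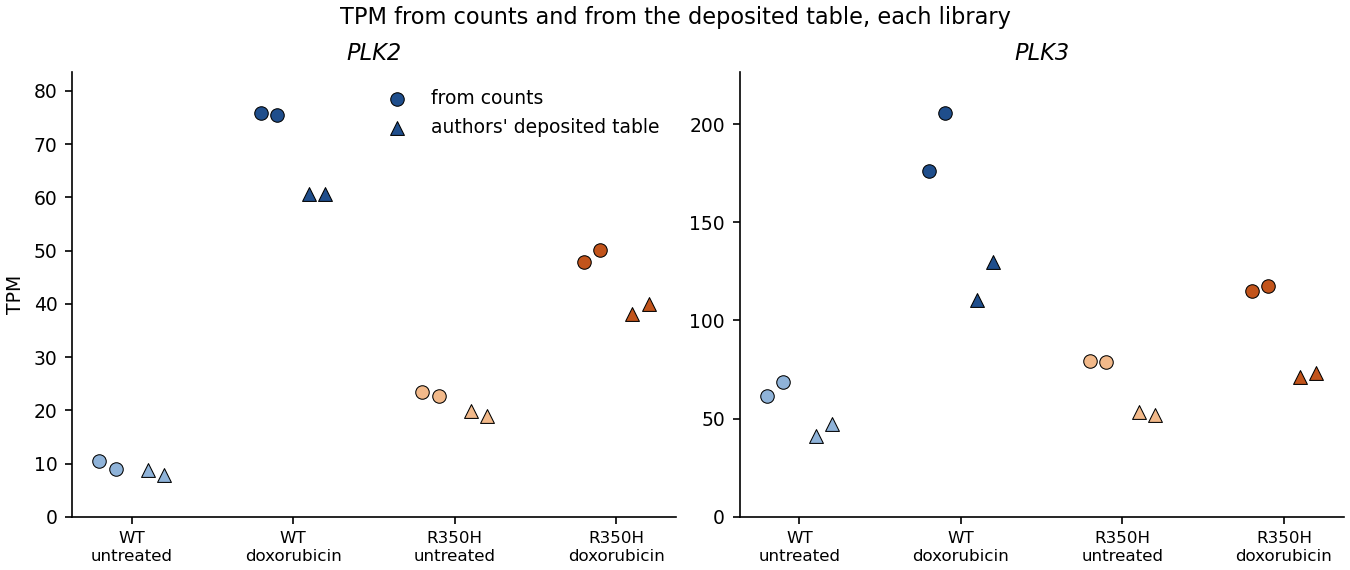
TPM of PLK2 and PLK3 (vertical axes, starting at 0) in each library, computed from counts (circles) and as in the authors' deposited table (triangles). The triangles are lower in every library, at 0.618 to 0.876 of the circles, and keep the order of the groups.

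The genes around PLK1 in mitosis were followed as a list of 23 partners: activators such as Aurora A (AURKA), its cofactor BORA, substrates and docking sites. With doxorubicin 20 of the 23 fell in WT and none rose, with a median log2 change of -1.13, where 23.6% of all genes fell and the median was -0.03. In R350H all 23 fell, with a median of -1.43, where 21.8% of all genes fell. The genes with the largest falls in WT were KIF20A, a kinesin of the central spindle that docks PLK1 (-2.49 ± 0.08, edgeR adjusted p = 3.83e-19), CDC20, the activator of the anaphase-promoting complex (-2.28 ± 0.07), CCNB1, the cyclin B1 of mitotic entry (-2.25 ± 0.07), and BUB1, a spindle checkpoint kinase (-2.15 ± 0.07). PLK1 itself had a lower value (-2.79) than any of the 23 in WT. In R350H KIF20A was at -1.99 ± 0.08, CDC20 at -1.97 ± 0.07, BUB1 at -1.90 ± 0.07 and CDC25C, a phosphatase that activates CDK1, at -1.81 ± 0.12.

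The partners split in the interaction. The difference between responses was above 0 and called for 5 of 23 and below 0 and called for 8, with a median of -0.02, where 6.46% of all genes were called higher and 8.18% lower. The 5 were CCNB1 (0.82 ± 0.09, edgeR adjusted p = 2.78e-07), AURKA (0.61), KIF20A (0.50), INCENP (0.50) and CDC20 (0.31), and PLK1 (0.75) had the same sign. The lowest were CENPU, the kinetochore protein that docks PLK1 (-0.98 ± 0.13), PKMYT1, a kinase that holds back CDK1 (-0.87 ± 0.13), and FBXO5, an inhibitor of the anaphase-promoting complex (-0.83 ± 0.12). CENPU and PKMYT1 did not pass the test in WT (0.11 and 0.06), nor did NEDD1 (0.10), and all 3 fell in R350H. Mean CENPU levels without and with the drug were 20.1 and 21.7 CPM in WT and 16.7 and 9.11 CPM in R350H. Between untreated genotypes 10 partners were higher in R350H and 4 lower, with a median of 0.09, where 17.3% of all genes were higher and 19.5% lower. After treatment 8 were higher and 7 lower, with a median of 0.01, where 19.1% of all genes were higher and 21% lower. The count of 8 was 5 without treated R350H replicate 2.

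PLK4 acts with a set of centriole proteins, of which 22 were listed. With doxorubicin 14 fell and 2 rose in WT (median -0.33), and 17 fell and none rose in R350H (median -0.45). Of all genes, 23.6% fell and 24.1% rose in WT, and 21.8% fell and 26.1% rose in R350H. STIL, the protein that binds and activates PLK4, had the lowest log2 change in both genotypes, at -1.08 ± 0.07 in WT (edgeR adjusted p = 9.81e-13) and -1.59 ± 0.07 in R350H. WT libraries held STIL at 77.8 and 70.3 CPM untreated and 34.7 and 35.6 CPM treated. R350H libraries held it at 86.6 CPM in both untreated libraries and 29.4 and 28.2 CPM treated, so both treated R350H libraries were lowest. In WT the next falls were those of CEP135 (-0.90 ± 0.10), CEP295 (-0.76 ± 0.08) and CDK5RAP2 (-0.72 ± 0.07), centriole or pericentriolar proteins. In R350H they were WDR62 (-0.98 ± 0.11), CENPJ (-0.90 ± 0.08) and CEP295 (-0.85 ± 0.08). The 2 that rose in WT were TRIM37 (0.26), a ubiquitin ligase that limits centrosome material, and RTTN (0.20). In the interaction STIL (-0.51 ± 0.10, edgeR adjusted p = 7.50e-04) and RTTN (-0.47 ± 0.10) were the only 2 called of the 22, where 8.18% of all genes were called lower. That count is near the background, and was 6 without treated WT replicate 2, 5 with RLE factors, and 4 without untreated WT replicate 2 or with mitochondrial genes left out of the library sizes. Untreated R350H cells had 10 of the 22 higher and 3 lower than WT (median 0.19), with 6 higher without untreated WT replicate 2, where 17.3% of all genes were higher and 19.5% lower. After treatment 3 were higher and 4 lower (median 0.05), where 19.1% of all genes were higher and 21% lower.

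Of 25 targets of p53, a group PLK2 belongs to, 22 rose and none fell with doxorubicin in WT, with a median log2 change of 1.33, where 24.1% of all genes rose and the median of all genes was -0.03. In R350H 21 rose and 4 fell, with a median of 0.97, where 26.1% of all genes rose, 21.8% fell and the median was 0.03. PLK2 at 3.08 in WT was above every one of the 25 except TP53I3, an oxidoreductase (3.96 ± 0.08), and above MDM2, the ubiquitin ligase of p53 (2.09 ± 0.07), SESN1, a sestrin (1.92 ± 0.08), and CDKN1A, the cell cycle inhibitor p21 (1.88 ± 0.07). In R350H TP53I3 was at 3.21 ± 0.07, SESN1 at 1.70 ± 0.08, MDM2 at 1.59 ± 0.07 and BAX, a death effector, at 1.43 ± 0.08, all above PLK2 at 1.12. The 4 that fell in R350H were SESN2 (-1.26), GADD45A (-1.21), GDF15 (-0.86) and TNFRSF10B (-0.58).

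In the interaction 17 of the 25 were called lower and none higher, with a median of -0.36, where 8.18% of all genes were called lower. That count was 10 without untreated R350H replicate 2 and 11 without the libraries of the other strand setting. The lowest were SESN2 (-1.42 ± 0.10, edgeR adjusted p = 2.69e-11), GADD45A (-1.41 ± 0.10), CDKN1A (-0.98 ± 0.10) and GDF15 (-0.89 ± 0.10), all above PLK2 (-1.96). In WT SESN2 (0.15) and GDF15 (0.03) did not pass the test and GADD45A rose by only 0.20. SESN2, GDF15 and GADD45A fell in R350H, whereas PLK2 and CDKN1A rose in both genotypes. CDKN1A had a pattern of levels like that of PLK2 in untreated cells, at 545 CPM in WT and 1015 CPM in R350H, but stood at 2003 and 1890 CPM after treatment. Without the drug 19 of the 25 were higher in R350H and none lower (median 0.33), where 17.3% of all genes were higher. After treatment 6 were higher and 8 lower (median -0.05), where 19.1% of all genes were higher and 21% lower.

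Of 27 immediate early genes, the class in which PLK2 and PLK3 were first described, 12 rose and 10 fell with doxorubicin in WT, with a median of -0.03, where 24.1% of all genes rose and 23.6% fell. In R350H 3 rose, namely MYC (0.85), DUSP2 (0.77) and IER5 (0.43), and 18 fell, with a median of -0.66, where 26.1% of all genes rose and 21.8% fell. The share of the list that rose was thus above that of all genes in WT and below it in R350H. The largest changes in WT were those of CCN2 (1.99 ± 0.18) and CCN1 (1.64 ± 0.09), matricellular proteins, KLF2, a zinc finger factor (-1.43 ± 0.14), and DUSP2, a phosphatase of MAP kinases (1.25 ± 0.14). In R350H they were PPP1R15A, a phosphatase subunit of the stress response (-2.41 ± 0.07), ATF3 (-2.08 ± 0.08) and JUN (-2.02 ± 0.08), both transcription factors, and DUSP5, a MAP kinase phosphatase (-1.99 ± 0.07).

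The interaction was below 0 and called for 20 of the 27 and above 0 and called for none, with a median of -0.71, where 8.18% of all genes were called lower. ATF3 was lowest (-2.52 ± 0.11, edgeR adjusted p = 1.36e-15), followed by CCN2 (-2.45 ± 0.24), DUSP5 (-1.96 ± 0.10) and PPP1R15A (-1.82 ± 0.09), a range that holds the PLK2 value of -1.96. Mean ATF3 levels without and with the drug were 62.0 and 84.3 CPM in WT and 91.8 and 21.8 CPM in R350H, so unlike PLK2 it fell with treatment in R350H. Untreated R350H cells had 12 of the 27 higher and 5 lower (median 0.19), where 17.3% of all genes were higher and 19.5% lower. After treatment 1 was higher, KLF10 (0.34), and 20 were lower (median -0.56), where 19.1% of all genes were higher and 21% lower.

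**Figure D5:**
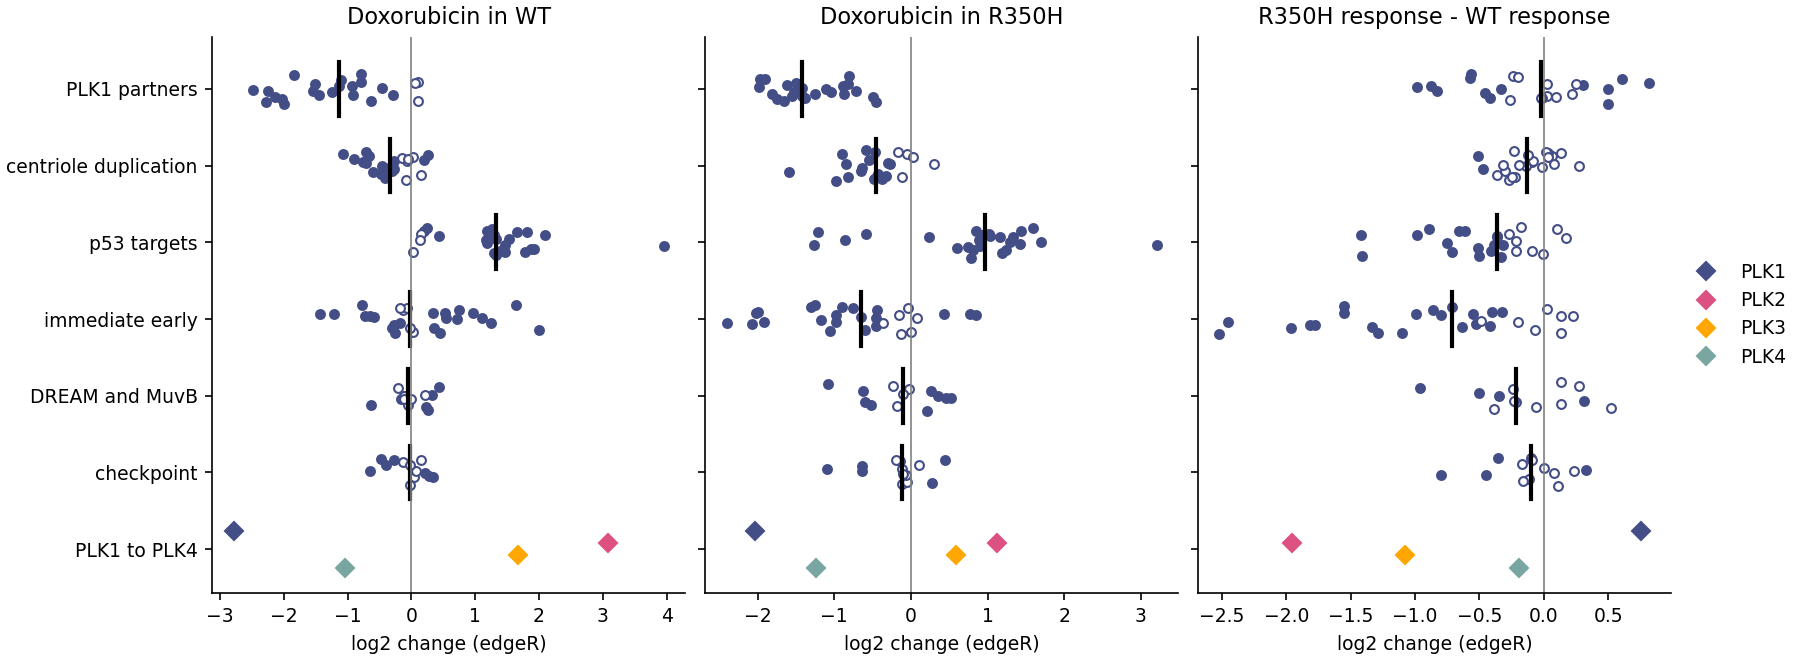
Log2 change (horizontal axes, edgeR) of the genes of 6 lists and of PLK1 to PLK4 with doxorubicin in WT, in R350H and in the difference between these responses. Each circle is a gene, filled where its adjusted p was under 0.05, the upright bar is the median of the list, and diamonds are the members. In the panels of the doxorubicin responses PLK1 and PLK4 lie left of 0 with the medians of the PLK1 partners and the centriole list, and PLK2 and PLK3 lie right of 0 with the median of the p53 targets.

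A list of 13 genes covered the DREAM and MuvB complexes, which act at the cell cycle homology region. Of these, 4 rose and 2 fell in WT (median -0.05), a share near the 47.7% of all genes called there. In R350H 5 rose and 4 fell (median -0.11), where 47.9% of all genes were called. MYBL2, the activator partner of MuvB, fell in R350H (-1.08 ± 0.07, edgeR adjusted p = 1.60e-12) from 53.8 and 51.3 to 24.6 and 25.3 CPM, was at 52.8 and 48.8 CPM on average in untreated and treated WT, and had an interaction of -0.96 ± 0.10. LIN37, a MuvB subunit, fell in WT (-0.63 ± 0.20) at only 68 to 164 counts per library. TFDP1 (0.43 ± 0.06), E2F4 (0.33 ± 0.06) and RBL2 (0.26 ± 0.07) rose in WT. In R350H RBL2 (0.53 ± 0.07) and E2F4 (0.46 ± 0.06) rose, while LIN54 (-0.62 ± 0.08) and RBL1 (-0.59 ± 0.10) fell. In the interaction 3 of the 13 were called lower, MYBL2, LIN54 (-0.50) and DYRK1A (-0.35), and 1 higher, RBBP4 (0.31), where 14.6% of all genes were called. The 3 became 6 without treated WT replicate 2, and the 5 that rose in R350H became 3 without treated R350H replicate 1. Between genotypes 3 were higher and 4 lower in untreated R350H (median -0.10), and 2 were higher and 6 lower after treatment (median -0.16), where 36.8% and 40.1% of all genes were called.

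Of 13 checkpoint genes that signal damage to PLK1, 3 rose and 4 fell in WT (median -0.01) and 2 rose and 3 fell in R350H (median -0.12). With 47.7% and 47.9% of all genes called in these contrasts, such counts are near the background and are no result about the list. MDC1, a scaffold at DNA breaks, had the largest change in both (-0.65 ± 0.11 and -1.09 ± 0.10), and CHEK1, the kinase downstream of ATR, fell in both (-0.48 ± 0.08 and -0.63 ± 0.09). ATR itself rose in both (0.34 ± 0.08 and 0.45 ± 0.08), and ATM fell in WT (-0.40 ± 0.07). CHEK1 was also lower in R350H than in WT in untreated cells (-1.15) and after treatment (-1.31). CLSPN, the adaptor of CHEK1 that PLK1 marks for destruction during recovery, fell in R350H (-0.64 ± 0.08), was at 0.15 in WT without passing the test, and had an interaction of -0.79 ± 0.11 (edgeR adjusted p = 1.29e-05). The other interaction calls were MDC1 (-0.45), RAD1 (-0.35) and ATM (0.33), where 14.6% of all genes were called. Between genotypes 5 were higher and 1 lower in untreated R350H (median 0.18), and 4 were higher and 2 lower after treatment (median 0.09), beside 36.8% and 40.1% of all genes called. The 3 interaction calls below 0 came to 1 without untreated R350H replicate 1 or 2 or treated R350H replicate 1, and without the libraries of the other strand setting. The 3 that fell in R350H became 5 without treated WT replicate 2, 6 with upper-quartile factors and 7 with only the 2 groups fitted.

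In the RefSeq windows, TTTGAA was found for 11 of the 18 PLK1 partners with a window (61.1%), 7 of 20 centriole genes (35%), 6 of 12 DREAM and MuvB genes (50%), 3 of 12 checkpoint genes (25%), 4 of 20 immediate early genes (20%) and 3 of 20 p53 targets (15%). Of all 27305 genes in that table, 18.2% had it in a window. The falling members PLK1 and PLK4 had it and the rising members PLK2 and PLK3 did not, which with 4 genes is a description only.

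The genes most like each member were found by the root mean square difference of log2 CPM, each gene centred on its own mean over the 8 libraries, among 11277 tested genes with a mean of at least 5 CPM. For PLK1 these were KIF20A, at a difference of 0.13, then NEK2 (0.14), a centrosomal kinase, CENPE (0.14), a kinetochore kinesin, HMMR (0.21) and PRR11 (0.21). The replicate spread of PLK1 itself was 0.10, as the root mean square difference of log2 CPM between the 2 libraries of a group. It compares libraries of the same gene and not different genes, so it is only a rough guide to closeness. KIF20A, which is also the partner that fell furthest, was at 95.9, 17.1, 125 and 31.5 CPM on average in untreated WT, treated WT, untreated R350H and treated R350H. For PLK4 they were DBF4 (0.06), the activator of the replication kinase CDC7, KIF9-AS1 (0.08), an antisense RNA, TPX2 (0.09), an activator of Aurora A, BEX2 (0.09) and ANXA1 (0.09), all closer than the replicate spread of PLK4 (0.12). DBF4 was at 46.8, 23.8, 47.5 and 20.3 CPM in the same order of groups.

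For PLK2 the nearest gene was CYP4F3 (0.14), a fatty acid hydroxylase with the close relative CYP4F2. Reads of mapping quality under 10 were dropped, but whether reads of these genes were fully told apart was not examined. The CYP4F3 value is uncertain to that extent. CYP4F3 was followed by PGF (0.21), a growth factor of the VEGF family, ABCA12 (0.28), a lipid transporter, COL17A1 (0.29), a collagen of hemidesmosomes, and SERPINB5 (0.30), the serpin maspin. PGF was at 3.68, 30.1, 6.98 and 21.9 CPM in that order of groups. For PLK3 they were SUSD2 (0.12), SMIM10L2A (0.14), TMEM52 (0.14), PXDN (0.14), a peroxidase of the matrix, and TAB3 (0.14), an adaptor of the kinase TAK1, beside a replicate spread of 0.12 for PLK3. SUSD2 was at 8.45, 25.9, 10.9 and 17.2 CPM. No gene was among the 5 nearest of more than 1 member. With Pearson's correlation as the measure of likeness, which ignores the size of a change, 1 of the 5 genes was shared for PLK1 (NEK2), 1 for PLK2 (CYP4F3) and none for PLK3 or PLK4, so these neighbours depend on the measure.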

How the data were processed

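The deposited values were counts of read pairs per gene for 8 libraries and a table of TPM. A stranded mRNA kit was used, per the labels' protocols. Per the file headers, the authors counted with featureCounts 2.0.1 on exons from GENCODE 34, dropping reads of mapping quality under 10. Strand setting 1 was used for untreated WT replicate 1 and untreated R350H replicate 2, and setting 2 for all others. The submitters' processing notes list hg38, STAR 2.7.5a, Trim Galore 0.6.10, FastQC 0.11.4, DESeq2 1.36.0 and another featureCounts version, 1.5.0-p1. For the deposited TPM of 202 genes, no method was given in the sources used here.

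All genes past filterByExpr were fitted with edgeR 4.0.16 in R 4.3.3 (TMM scaling, robust quasi-likelihood, 1 mean per group over the 8 libraries, 4 residual degrees of freedom). Tests were two-sided with Benjamini-Hochberg adjustment over 17868 genes and a threshold of 0.05, and intervals are at 95%. The biological coefficient of variation was 5.35%. CPM used TMM-scaled library sizes, and TPM was computed from counts and exon lengths. The fit was tested on simulated data with known changes. No pairing by replicate number was seen: over all tested genes, deviations of same-numbered libraries correlated at -0.08 to 0.04 between groups. Much of such deviation can be counting noise, so this cannot exclude that same-numbered libraries shared a culture or preparation.

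The members and gene lists were chosen with earlier results of these data known. Beside the members, the text names genes that overlap them, the 5 most like each, and up to 4 of each list with the largest change among genes past the test in the doxorubicin contrasts or their difference; other list genes are named where a count was 5 or fewer or as examples chosen after their values were seen. Alternatives were other scaling factors, mitochondrial genes left out of library sizes, no filter, a replicate block, a test against a 1.5-fold change, fits of only the compared groups, each library left out, the libraries of strand setting 1 left out, and DESeq2 1.42.0. Protein sequences were not used here.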

Additional observations from a re-analysis of the deposited data

Results flagged for a closer look

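The doxorubicin response differed between the genotypes for 3 of the 4 members, by the interaction term of the edgeR fit. Over all tested genes 14.6% were called in this contrast, 6.46% higher and 8.18% lower. The difference, R350H minus WT, was 0.75 on the log2 scale for PLK1 (edgeR adjusted p = 8.50e-06), -1.96 for PLK2 (edgeR adjusted p = 1.20e-13) and -1.08 for PLK3 (edgeR adjusted p = 6.99e-09). All 3 responses kept their direction in both genotypes and were smaller in R350H. The PLK1 difference did not pass a test against a 1.5-fold difference (edgeR adjusted p = 0.559).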

How the results depend on the processing

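Of the 20 member comparisons, 14 kept their direction and their side of the threshold in every alternative run. For PLK1 in untreated R350H against WT (0.16), the call appeared with RLE factors (0.18) and upper-quartile factors (0.19), and leaving out single libraries gave 0.0733 to 0.25. For PLK3 in that contrast (0.23) it was lost in the test against 1.5-fold (0.23) and without the libraries of strand setting 1 (0.12), and leaving out single libraries gave 0.12 to 0.33. PLK4 in that contrast (-0.04) turned to 0.0181 without the libraries of strand setting 1, and gave -0.0998 to 0.0192 over single libraries left out, turning only without untreated WT replicate 1. PLK4 in treated R350H against WT (-0.23) lost its call with upper-quartile factors (-0.19), in the 1.5-fold test (-0.23), with only the 2 groups fitted (-0.23) and with DESeq2 (-0.27), and gave -0.38 to -0.14 over single libraries left out. The 1.5-fold test also ended the calls of the PLK1 difference between responses (0.75) and of PLK3 with doxorubicin in R350H (0.59). With a replicate block, no member's call changed; PLK1 with doxorubicin in WT stayed at -2.79 and PLK4 in treated R350H against WT at -0.23 (edgeR adjusted p = 0.0460). Genes called over the whole table went from 8520 to 1793 for doxorubicin in WT, 8556 to 1825 in R350H, 6570 to 898 for untreated and 7172 to 1228 for treated genotypes, and 2617 to 227 for the difference, in the 1.5-fold test, and the last was 1620 to 1669 without any 1 R350H library and 1735 without those of strand setting 1. With these, the 1.5-fold test moved 30 counts by over 1.5 times, the others being counts of the gene lists. Shares of the summed level by CPM in place of TPM were 47.9% for PLK1 in untreated WT and 58.1% for PLK3 in treated WT. With 2 libraries a group, the SE of the PLK4 difference between responses was 0.12 on the log2 scale.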

Other observations

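BTBD19, a gene on the same strand 2492 bases downstream of PLK3 and chosen after its values were seen, was counted in WT at 24.2 and 26.8 CPM without the drug and 69.4 and 114 CPM with it. In R350H it was at 49.3 and 50.1 CPM without the drug and 96.3 and 98.7 CPM with it. It rose with doxorubicin in WT (log2 1.85 ± 0.26, edgeR adjusted p = 0.00436) and in R350H (log2 0.97 ± 0.25, edgeR adjusted p = 0.0310), and its 2 treated WT libraries stood far apart. Its genotype difference after treatment was 0.09 ± 0.24 (edgeR adjusted p = 0.814), beside -0.85 ± 0.07 for PLK3. DCTN5, a dynactin subunit 184 bases from PLK1 on the same strand, was at 124, 137, 108 and 125 CPM on average in untreated WT, treated WT, untreated R350H and treated R350H, and did not pass the test with doxorubicin in WT (0.14 ± 0.06, edgeR adjusted p = 0.0575). It rose with doxorubicin in R350H (0.22 ± 0.06, edgeR adjusted p = 0.00535) and was lower in untreated R350H than in untreated WT cells (-0.20 ± 0.06, edgeR adjusted p = 0.0118). ERN2, which overlaps PLK1 on the other strand, rose with doxorubicin in WT (log2 1.62 ± 0.34, edgeR adjusted p = 2.88e-04). It also rose in R350H (log2 1.17 ± 0.30, edgeR adjusted p = 0.00173). Over all libraries it held only 12 to 54 counts.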
